A study of Mus musculus with 6 samples.

Results

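Coenzyme A is made from pantothenate (vitamin B5), and the genes of that route were compared here between inguinal white adipose tissue (iWAT) of mice that lack the zinc transporter ZIP13 and of their wild-type (WT) littermates. The 9 genes were taken by name: the pantothenate kinases Pank1, Pank2, Pank3 and Pank4, the genes of the later steps Ppcs, Ppcdc and Coasy, and the pantetheinases Vnn1 and Vnn3. All probes assigned to a RefSeq transcript of 1 of them were used, which gave 10 probes, with 1 probe for each of 8 genes and more than 1 for Coasy. All 9 genes passed the filter on dim probes and were among the 15302 genes tested.

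The mice were 10 weeks old, with 3 WT and 3 Zip13-KO samples and 1 array for each. Zip13-KO mice carry in every tissue a Neo cassette in place of exons 6 to 8 of Zip13 (Slc39a13), an allele made in R1 embryonic stem cells and backcrossed to C57BL/6J for at least 7 generations. Both genotypes ate powdered food, because the knockout mice have missing teeth, and the diet of the animals used for the arrays is not given in the sources used here. RNA of the whole fat pad was labelled with Cy3, hybridised to Agilent 8x60K mouse arrays on 1 slide and scanned at 1 time, so values below are for a mixture of cells and not for adipocytes alone. On the slide, Zip13-KO replicate 1 shared a column with all 3 WT arrays, and the other Zip13-KO arrays were in the next column.

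Pantothenate kinase adds a phosphate to pantothenate, and this first step sets the pace of coenzyme A synthesis and is inhibited by acyl-coenzyme A. PPCS and PPCDC then add and trim a cysteine to give phosphopantetheine, and the bifunctional enzyme COASY carries out the last steps. Pantetheinases of the vanin family split pantetheine into pantothenate, which can be used again, and cysteamine. Tissues that burn fatty acids need coenzyme A, since each fatty acid is joined to it before oxidation.

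The pantothenate kinase genes host a microRNA family, which is shown here because it is a feature the 3 catalytically active isoforms share beyond the enzyme they encode. RefSeq (GRCm38.p6) places Mir107 inside Pank1 at chr19:34820687-34820773, Mir103-2 inside Pank2 at chr2:131288052-131288137 and Mir103-1 inside Pank3 at chr11:35782396-35782481, each on the strand of its host. The 3′ arm mature forms follow, with the seed (bases 2 to 8) in capitals.
mmu-miR-107-3p: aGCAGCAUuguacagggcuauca
mmu-miR-103-3p: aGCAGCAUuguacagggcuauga
The seed was identical, and counted from the 5′ end of miR-103-3p the only difference in 23 bases was G22C. The array measured the host transcripts, and no probe was matched to these microRNAs.

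Slc39a13, the targeted gene, had normalised log2 intensities of 11.29, 10.87 and 10.72 on the WT arrays and 6.76, 6.66 and 6.47 on the Zip13-KO arrays. Its level fell by 4.33 on the log2 scale (SE 0.17, adjusted p = 0.00128, limma with Benjamini-Hochberg adjustment over all genes tested), in the direction the labels give; whether its probe lies in the replaced exons was not checked. A gene was called when the adjusted p was under 0.05 and the change exceeded 1.5-fold. Replicates were taken as separate mice, since the legend of the array data counts mice, although the labels do not say so. Between 58.8% and 63.2% of probes were well above background on each array. WT replicate 1 had the lowest summed adipocyte marker intensity of the 6 arrays and the highest macrophage and stromal sums. The changes of Pank3, Coasy and Vnn3 are therefore also given without it.

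Of the 9 genes, 5 were higher in Zip13-KO iWAT (Pank1, Pank3, Ppcs, Coasy and Vnn3) and 0 were lower. Across all genes tested, 10.2% were called higher and 8.28% lower. The 9 genes were chosen with earlier results of these data known, so these counts are description and not a test of the set. The median log2 fold change of the 9 genes was 0.72, against -0.000512 for all genes tested, and 8 of the 9 were above 0, against 49.9% of all genes. On 6 of the 9 genes every Zip13-KO array lay above every WT array, as it did for 29.2% of all genes tested, and on 0 every Zip13-KO array lay below, as for 25.9% of all genes. Without the limit on fold change the counts were the same 5 and 0, against 19.3% of all genes higher and 15.2% lower. The rise was uneven: Pank1 changed most, Pank3, Vnn3, Ppcs and Coasy changed by an estimated 1.64-fold to 1.88-fold, and Pank2, Pank4, Ppcdc and Vnn1 were not called.

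Pank1 is the isoform best known from liver, where it responds to fasting. Its log2 intensities were 6.06, 6.05 and 6.58 in WT and 8.48, 8.68 and 8.63 in Zip13-KO iWAT. All Zip13-KO arrays lay far above all WT arrays, and the gap was several times the range within either genotype. Pank1 rose by 2.37 on the log2 scale, a 5.16-fold change (95% interval 3.92 to 6.78, adjusted p = 0.00341), and 99.9% of all genes tested had a lower log2 fold change. The same contrast appeared before normalisation, with processed signals of 70.8, 73.2 and 105 in WT and 331, 378 and 370 in Zip13-KO. The WT signals were near the dim end, and the size depended on how the signal was taken. The log2 change was 1.83 with no background correction and 1.59 with another correction (normexp), and both were called. Both alternatives started from median in place of processed signal, so the part of background handling alone cannot be told apart.

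Pank3, an isoform found in most tissues, had log2 intensities of 9.72, 10.66 and 10.34 in WT and 11.14, 11.22 and 10.98 in Zip13-KO. The genotypes did not overlap, but the WT arrays spread over 0.94, a wider range than that of 91.5% of genes, while the Zip13-KO arrays spread over 0.23. Pank3 rose 1.83-fold (95% interval 1.23 to 2.73, adjusted p = 0.0348). WT replicate 1 was the lowest array, and without it the log2 change was 0.61 in place of 0.87, still called (adjusted p = 0.0242). The call of Pank3 was lost when any 1 Zip13-KO array or WT replicate 3 was left out, with adjusted p between 0.0633 and 0.103.

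Pank2, the isoform whose human counterpart is mutated in a neurodegeneration with brain iron accumulation, had log2 intensities of 9.39, 9.54 and 9.57 in WT and 9.68, 9.72 and 9.60 in Zip13-KO. The 3 Zip13-KO arrays lay just above the WT arrays, and the difference of 0.17 on the log2 scale did not pass the test (95% interval -0.03 to 0.37, adjusted p = 0.156). That interval excludes a change of 1.5-fold, which is 0.58 on this scale. Pank4, whose product has lost kinase activity, was measured at 11.60, 11.53 and 11.86 in WT and 11.61, 11.77 and 11.86 in Zip13-KO. Its groups overlapped fully, and the difference of 0.08 (95% interval -0.21 to 0.37, adjusted p = 0.627) also excludes a 1.5-fold change.

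**Figure D1:**
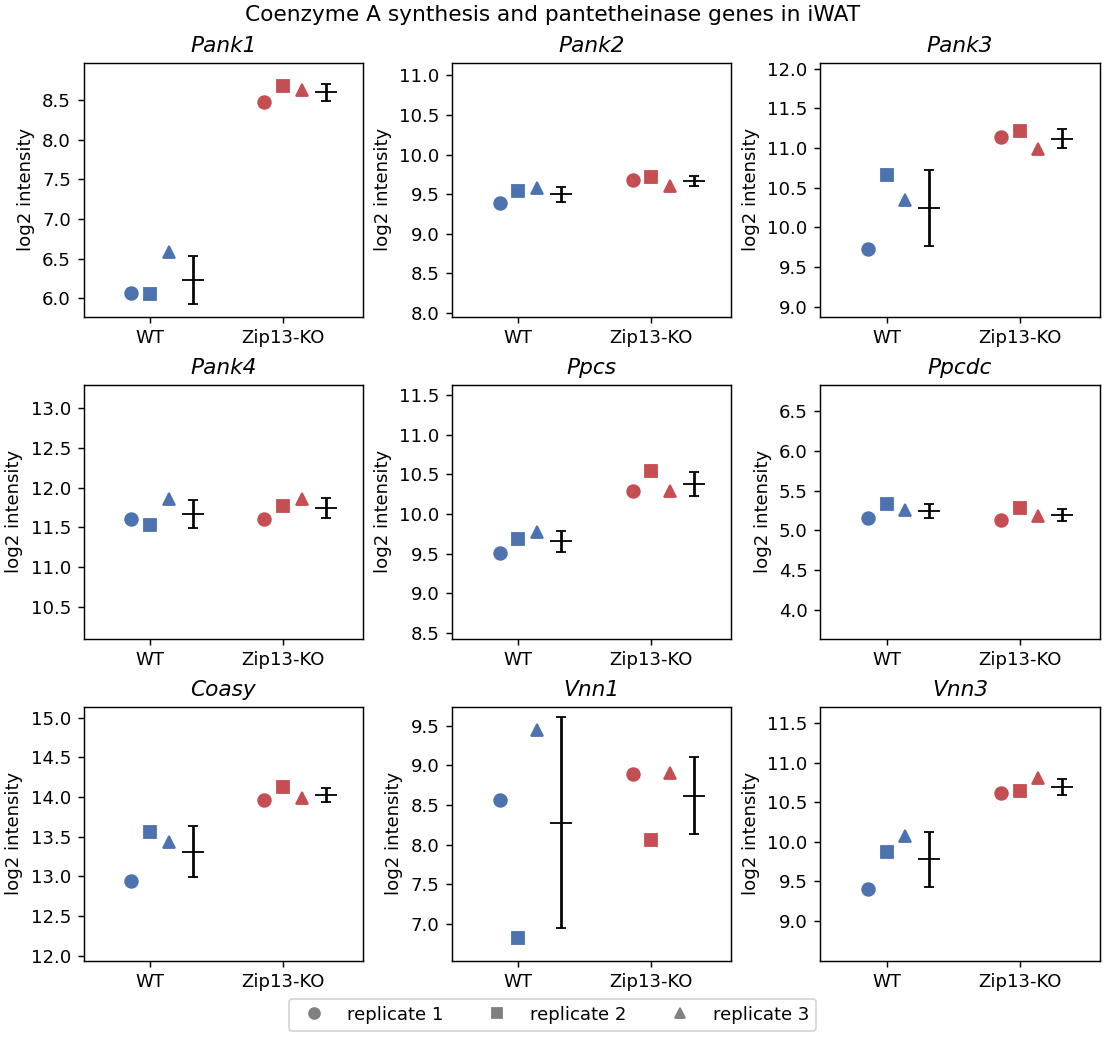
Normalised log2 intensity of each of the 9 genes on the 3 WT and 3 Zip13-KO arrays (points, 1 shape per replicate number, not taken as pairing), with the mean and SD beside them. Every panel spans the same log2 range. Pank1 shows the widest gap between genotypes, while Pank2, Pank4 and Ppcdc stay nearly level and Vnn1 scatters in WT.

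Because different probes cannot be compared in brightness, the isoforms were compared by how much each changed, using the difference between 2 isoforms on the same array. This was done for all 6 pairs, with a 95% interval from the 6 arrays, and an exact two-sided permutation test, which cannot go below 0.1 with 3 arrays against 3. Pank1 rose more than Pank2 by 2.20 on the log2 scale (95% interval 1.75 to 2.64), more than Pank4 by 2.29 (2.04 to 2.53) and more than Pank3 by 1.49 (0.62 to 2.37), each with an exact permutation p of 0.1. In all 3 of these pairs the Zip13-KO arrays lay wholly above the WT arrays. Pank1 moved relative to Pank4 by 2.30, 2.35 and 2.21 on the 3 Zip13-KO arrays, and relative to Pank3 by 1.35, 1.48 and 1.66. The size of the differences between Pank1 and the other isoforms also depended on the signal and background correction used. Both alternatives given here again started from median signal. With normexp the differences were 1.44 for Pank2, 1.57 for Pank4 and 0.77 (95% interval 0.03 to 1.51) for Pank3. With no background correction they were 1.68, 1.81 and 0.997 (95% interval of the last 0.22 to 1.77). The 95% intervals of all 3 pairs excluded 0 under either setting.

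The contrast among the other isoforms was smaller. Pank2 minus Pank3 was -0.70 (95% interval -1.34 to -0.06, exact permutation p = 0.1), so Pank3 rose more, although this interval included 0 when any 1 Zip13-KO array or WT replicate 3 was left out. Pank3 minus Pank4 was 0.79 (95% interval -0.10 to 1.68, exact permutation p = 0.2), and without WT replicate 2 it was 1.07 (0.41 to 1.73). With any other single array left out, the interval of Pank3 minus Pank4 included 0. Pank2 minus Pank4 was 0.09 (95% interval -0.27 to 0.45, exact permutation p = 0.6). When the intervals were widened to hold jointly for the 6 pairs, Pank1 against Pank2 (1.42 to 2.98) and against Pank4 (1.86 to 2.72) excluded 0, and Pank1 against Pank3 (-0.03 to 3.02) and Pank2 against Pank3 (-1.82 to 0.41) did not.

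**Figure D2:**
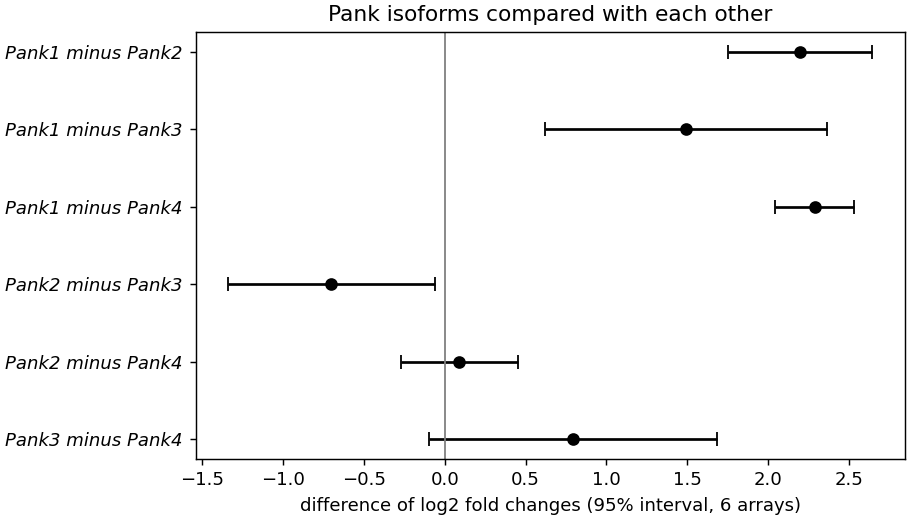
Difference between the log2 fold changes (Zip13-KO over WT) of each pair of Pank isoforms, with the 95% interval over 6 arrays, not adjusted for the 6 pairs. The pairs with Pank1 lie at 1.49 to 2.29, to the right of 0, and Pank2 minus Pank4 lies at 0.09.

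The starts of the 2 kinase genes that were called are shown as description, and a link between sequence and change was not tested. The stretches are the 250 bases before each start in the RefSeq table used (GRCm38.p6), given 5′ to 3′ along the gene, with CG dinucleotides in capitals. Pank1 has 2 starts there, with stretches at chr19:34877918-34878167 and chr19:34879456-34879705 on the minus strand, both inside the annotated gene (chr19:34806935-34883423) and not at its outer 5′ end, and Pank3 has 1, at chr11:35769245-35769494 on the plus strand.
Pank1, first of the 2 stretches: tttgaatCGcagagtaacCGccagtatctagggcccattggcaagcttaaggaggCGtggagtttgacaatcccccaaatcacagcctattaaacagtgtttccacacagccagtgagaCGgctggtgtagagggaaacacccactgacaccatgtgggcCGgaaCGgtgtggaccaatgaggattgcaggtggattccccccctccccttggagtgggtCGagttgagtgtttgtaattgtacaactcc
Pank1, second of the 2 stretches: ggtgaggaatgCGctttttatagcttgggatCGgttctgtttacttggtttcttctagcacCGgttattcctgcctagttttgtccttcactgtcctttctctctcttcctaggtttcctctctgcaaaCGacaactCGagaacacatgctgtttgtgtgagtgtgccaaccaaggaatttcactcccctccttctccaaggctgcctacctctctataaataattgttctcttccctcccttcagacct
Pank3: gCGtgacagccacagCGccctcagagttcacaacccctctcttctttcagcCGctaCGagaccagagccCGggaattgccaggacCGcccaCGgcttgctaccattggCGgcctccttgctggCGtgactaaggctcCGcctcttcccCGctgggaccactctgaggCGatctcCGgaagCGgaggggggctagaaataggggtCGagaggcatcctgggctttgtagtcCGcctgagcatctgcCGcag
In windows of 300 bases, which also take in the 50 bases after the start, Pank1 held 8 and 10 CG dinucleotides and Pank3 held 20, against a median of 7 over 32851 windows. The windows of Pank2 held 3, 30 and 51, and that of Pank4 held 16. Of 4 motifs searched on both strands, the nuclear receptor half-site AGGTCA occurred in the windows of Ppcs and Ppcdc, 2 of the 10 windows of 7 members, against 16.3% of all windows. The extended half-site TCAAGGTCA, which contains that half-site, the C/EBP motif TTGCGCAA and the cAMP response element TGACGTCA were in none of the 10, and in 0.423%, 0.183% and 1.79% of all windows. The letters of these 4 motifs were therefore absent from the windows of all Pank genes, which says nothing of other parts of the genes.

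Of the later steps, Ppcs and Coasy rose and Ppcdc did not pass the test. Ppcs, which joins cysteine to phosphopantothenate, was measured at 9.51, 9.69 and 9.77 in WT and 10.29, 10.55 and 10.29 in Zip13-KO. It rose 1.65-fold (95% interval 1.37 to 1.996, adjusted p = 0.00853), with the 2 genotypes clear of each other. The range was 0.26 in WT and 0.25 in Zip13-KO. Coasy had log2 intensities of 12.94, 13.55 and 13.44 in WT and 13.96, 14.13 and 13.99 in Zip13-KO on its brighter probe, a 1.64-fold rise (95% interval 1.23 to 2.19, adjusted p = 0.0234). Its other probe, assigned to the same transcript, gave a log2 change of 0.69 beside 0.72, and both passed the test over 33041 probes, of which 8.27% were called higher and 7.05% lower. WT replicate 1 was again the lowest array, and without it the Coasy change was 0.53 on the log2 scale, under the 1.5-fold limit (adjusted p = 0.0144). The call was also lost when any 1 Zip13-KO array was left out (adjusted p 0.0615 to 0.0787).

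Ppcdc, the decarboxylase between these steps, was dim, with log2 intensities of 5.16, 5.33 and 5.25 in WT and 5.13, 5.28 and 5.18 in Zip13-KO. Its processed signals of 31.7 to 43.8 were close to the median of all probes, 33.2 to 40.6 by array, although every array marked it well above background. The difference of -0.05 (95% interval -0.26 to 0.15, adjusted p = 0.649) was within the spread of the replicates, and the interval excludes a 1.5-fold change in either direction at this signal. Ppcdc and Ppcs therefore differed in call, and their difference was not tested.

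The 2 pantetheinases differed in how steady they were among WT samples. Vnn3 was measured at 9.40, 9.87 and 10.07 in WT and 10.62, 10.64 and 10.80 in Zip13-KO. Its WT range of 0.67 was itself wider than that of 83.7% of genes. Vnn3 rose 1.88-fold (95% interval 1.39 to 2.54, adjusted p = 0.0142), and without WT replicate 1 the log2 change was 0.72 in place of 0.91, still called (adjusted p = 0.0107). When any 1 Zip13-KO array was left out the call was kept narrowly, with adjusted p between 0.0480 and 0.0497. Vnn1, which is best known from liver and gut, had log2 intensities of 8.56, 6.83 and 9.44 in WT and 8.89, 8.06 and 8.90 in Zip13-KO. The WT arrays alone spanned 2.62 on the log2 scale, wider than 99.7% of genes, and enclosed all Zip13-KO values. The Vnn1 difference of 0.34 (95% interval -1.28 to 1.95, adjusted p = 0.715) leaves changes of either sign possible, and without WT replicate 2 it turned to -0.39 (adjusted p = 0.474).

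Genes that surround this route were read from a list of 17, of which 16 were tested and Dpys, an enzyme of pyrimidine breakdown, was not. Of the 16, 8 were higher and 0 lower, against 10.2% and 8.28% of all genes tested, and the median log2 fold change was 0.64. In all, 14 lay above 0, against 49.9% of all genes, and 12 had all Zip13-KO arrays above all WT arrays, against 29.2%. Without the limit on fold change 12 were higher and 0 lower, against 19.3% and 15.2% of all genes. This list was likewise chosen with earlier results of these data known, and its counts are description only. Slc5a6, the sodium-dependent carrier that brings pantothenate and biotin into cells, had the largest change, with 10.49, 11.60 and 11.60 in WT and 12.69, 12.78 and 12.96 in Zip13-KO. It rose 2.99-fold (95% interval 1.76 to 5.07, adjusted p = 0.0144). WT replicate 1 was its lowest array. Without that array 6 of the 16 genes were higher, against 1213 of the 15302 genes tested. The changes of single genes of this list are given only with all 6 arrays. Slc25a42, the carrier that takes coenzyme A into mitochondria, lay at 10.22, 10.47 and 10.63 in WT and 11.69, 11.90 and 11.91 in Zip13-KO, a 2.63-fold rise (95% interval 2.12 to 3.26, adjusted p = 0.00441). Slc25a16, a related mitochondrial carrier, rose by 0.74 on the log2 scale (adjusted p = 0.0111).

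Of the 3 hydrolases that cleave coenzyme A, 1 was called, beside 10.2% of all genes tested called higher. Nudt7, the peroxisomal one called, had log2 intensities of 11.01, 11.46 and 11.43 in WT and 12.64, 12.71 and 12.46 in Zip13-KO and rose 2.47-fold (95% interval 1.94 to 3.16, adjusted p = 0.00515). Nudt8 and Nudt19 were each at 0.53 on the log2 scale, under the limit on fold change. Both passed on adjusted p (0.00729 and 0.0150), with all Zip13-KO arrays above all WT arrays. In the pyrimidine route 1 of 2 genes tested was called, with Upb1 at 0.21 (adjusted p = 0.664). Dpyd, the first enzyme of pyrimidine breakdown, a route that yields beta-alanine, rose 2.49-fold (95% interval 1.98 to 3.13, adjusted p = 0.0046). Its values were 8.46, 8.74 and 8.97 in WT and 10.04, 10.03 and 10.05 in Zip13-KO, so that the Zip13-KO arrays hardly differed among themselves. Of 5 genes of cysteamine and taurine, 3 were called: Cdo1 (0.79, adjusted p = 0.0359), Fmo1 (0.76, adjusted p = 0.0194) and Csad (0.74, adjusted p = 0.0126), which make taurine from cysteine, rose on the log2 scale. Ado, which oxidises cysteamine, was at 0.10 (adjusted p = 0.344) and the taurine carrier Slc6a6 at -0.07 (adjusted p = 0.726). The lowest of the 16 was Dcakd, which resembles the kinase of the last step of the pathway, at -0.16 (adjusted p = 0.400).

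**Figure D3:**
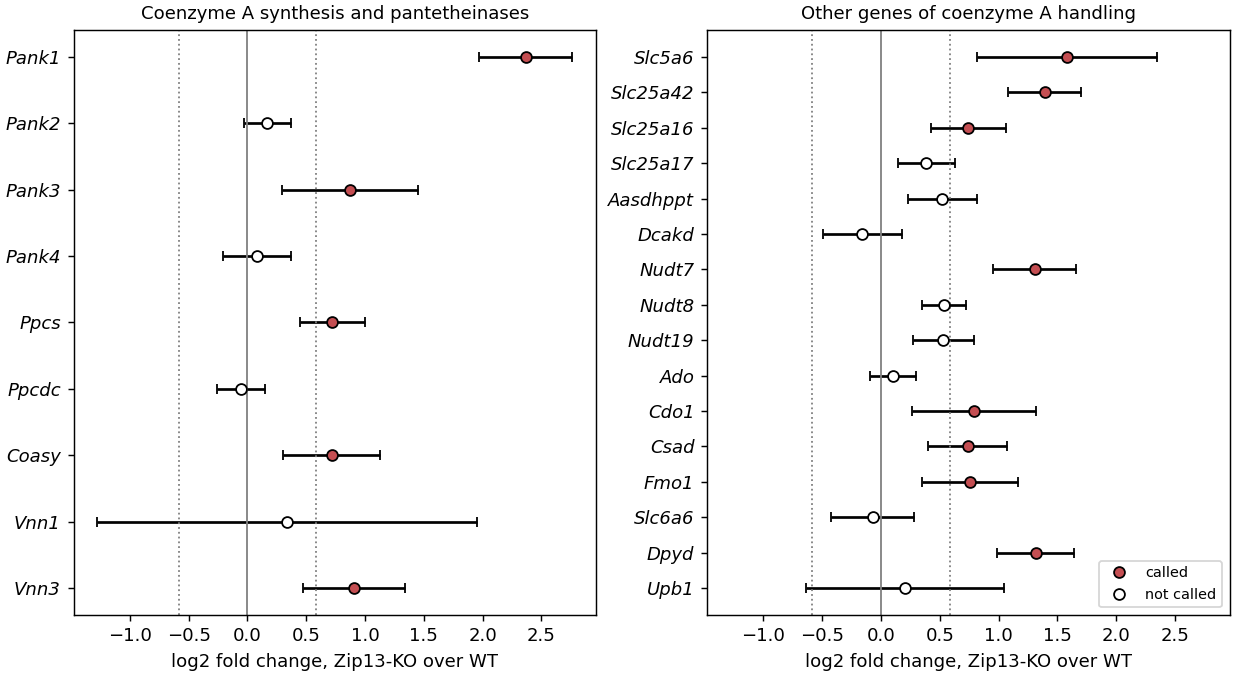
Log2 fold change (Zip13-KO over WT) with its 95% interval for the 9 genes (left) and the 16 tested genes of coenzyme A handling (right), with called genes filled and dotted lines at a 1.5-fold change. Pank1 at 2.37 lies to the right of all others, Slc5a6 at 1.58 is the next, and no gene was called lower.

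The make-up of the tissue moved with these results, and fewer cells of a type cannot be told apart from less RNA per cell in whole tissue. Among all genes tested, 49.9% had a log2 fold change above 0, 10.2% were called higher and 8.28% lower. Zip13-KO arrays lay wholly above WT arrays for 29.2% of all genes and wholly below for 25.9%. Of the 10 adipocyte markers, all lay above 0, 8 had Zip13-KO arrays wholly above WT arrays and 3 were called higher. Their summed normalised intensity ranged from 580300 to 736500 in WT and from 832500 to 863400 in Zip13-KO, and none of the 10 was at background. Pparg, the master regulator of adipocytes, had the largest change (1.13) and Cfd, which encodes adipsin, the smallest (0.03). All 8 brown or beige adipocyte markers were higher, from Prdm16 (0.93) to Ucp1 (5.16), with sums of 36020 to 58000 in WT and 161300 to 250700 in Zip13-KO. Of 8 macrophage markers, 7 were lower, with Cd68 changing most (-1.87) and Itgam least (-0.17), and their sums were 87730 to 143800 in WT and 41670 to 54650 in Zip13-KO. Of 7 neutrophil and 6 stromal markers tested, 4 and 2 were lower, none of 4 mammary markers was called, and 1 of 6 muscle and 1 of 5 endothelial markers was higher. None of 7 lymph node markers was called, but all lay below 0 and 6 had Zip13-KO arrays wholly below WT arrays, with sums of 40250 to 50150 in WT and 30020 to 35040 in Zip13-KO. Alb, the only liver or kidney marker of 4 that passed the filter, rose by 1.45 on the log2 scale. The part of these shifts in the results was not tested.

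To show which genes of the route moved beyond the adipocyte markers, each log2 value was also taken relative to the mean of the 10 markers on the same array, a step added after the data were seen. That mean stood at -0.47, 0.28 and 0.19 in WT, relative to its WT mean, and at 0.67, 0.57 and 0.58 in Zip13-KO. It took in markers of unlike spread: Lep ranged from 7.07 to 9.98 in WT, while the very bright Cfd lay at 17.39 to 17.49 on every array. On this scale Pank1 lay at -0.46 to 0.30 in WT and 1.58 to 1.89 in Zip13-KO, so the gap of Pank1 remained wide. Brown or beige adipocyte markers were not used as a reference. Their median log2 fold change was 2.22, beside 2.37 for Pank1. Pank3 (0.16 to 0.41 in Zip13-KO, -0.09 to 0.14 in WT) and Vnn3 (0.17 to 0.44, against -0.20 to 0.11) stayed above all WT arrays by a small margin. Ppcs (-0.03 to 0.33, against -0.25 to 0.32) and Coasy (-0.02 to 0.25, against -0.06 to 0.10) overlapped with WT. Pank2 (-0.48 to -0.34, against -0.24 to 0.36) and Ppcdc (-0.79 to -0.53, against -0.20 to 0.38) lay below all WT arrays. Pank4 (-0.72 to -0.39, against -0.42 to 0.41) and Vnn1 (-0.79 to 0.04, against -1.73 to 0.98) overlapped with WT. On this scale 3 of the 9 genes had Zip13-KO values above all WT values and 2 below, against 3.51% of all genes tested above and 65.5% below. The directions of Pank2, Pank4 and Vnn1, all above 0 before, turned with this choice of reference, their Zip13-KO means lying at -0.44, -0.53 and -0.27.

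**Figure D4:**
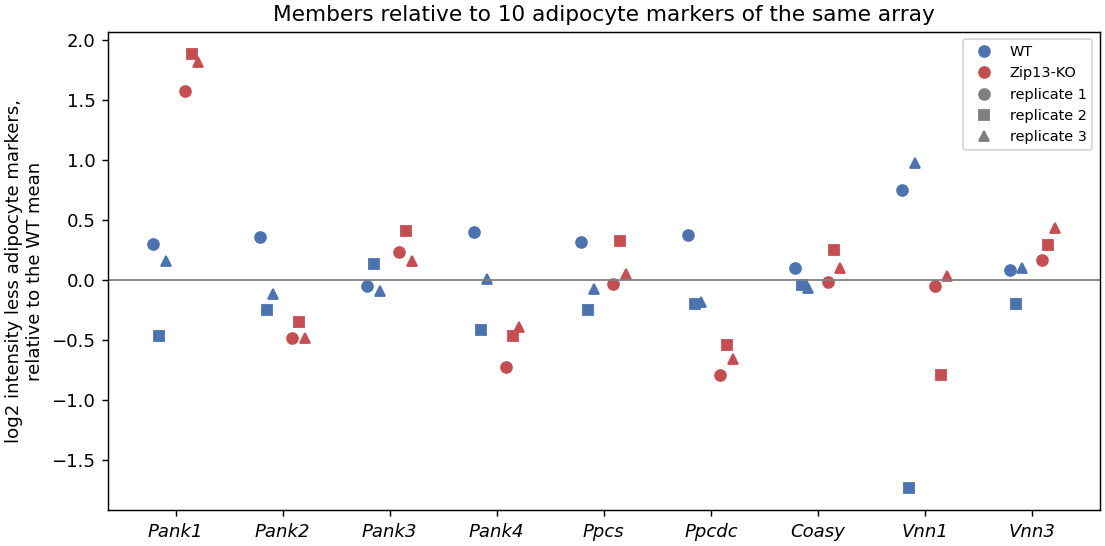
Log2 intensity of each gene less the mean of 10 adipocyte markers on the same array, shown relative to the WT mean (points, 1 per array). Of the genes shown, only Pank1 has a wide gap, with Zip13-KO arrays at 1.58 to 1.89, while Ppcs and Coasy overlap with WT.

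Position on the slide was partly tied to genotype. Within the column that held the 3 WT arrays and Zip13-KO replicate 1, the log2 difference was 2.25 for Pank1, 0.90 for Pank3, 0.64 for Ppcs, 0.65 for Coasy and 0.84 for Vnn3. With the column as a term, none of the 9 genes was called (Pank1 adjusted p = 0.0578, Ppcs 0.0897, Vnn3 0.120, Coasy 0.165 and Pank3 0.169), and 0 of all genes tested were called higher and 7 lower by limma. That fit compares a single Zip13-KO array with 3 WT arrays.

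The genes whose pattern over the 6 arrays was nearest to each isoform were found by Euclidean distance between log2 values centred on each gene's mean. For Pank1 these were E330011O21Rik (distance 0.322), Ccno (0.413) and Sec14l4 (0.467), with log2 fold changes of 2.30, 2.13 and 2.20. For Pank3 they were Orm1 (0.111), Aifm2 (0.146) and Mgll (0.161), which changed by 0.92, 0.82 and 0.94. Krr1, L3mbtl2 and Trim43c were nearest to Pank2 (0.0435 to 0.0521) and Zpbp2, Lrrc8a and Naa25 to Pank4 (0.0478 to 0.0877). A gene with a larger change has larger distances, so the distances of different isoforms are not set against each other.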

How the data were processed

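RNA of iWAT in 3 WT and 3 Zip13-KO samples was measured on 1-colour arrays. The authors' scanner files, per the file headers made with Agilent Feature Extraction 11.5.1.1, give processed signal intensity, corrected for background but not normalized between arrays, and median signal intensity. The deposited values table holds log2 median signal, quantile normalized, and was used as an alternative. Processed signals were log2 transformed, control and outlier spots left out, spots of a probe averaged and arrays quantile normalized. Probes well above background (over 0.5 of their spots) on all 3 arrays of a genotype were kept, and the brightest probe stood for a gene, named through RefSeq accessions (GRCm38.p6). Genes were compared with limma 3.58.1 (R 4.3.3), tested on simulated data first. The precision is limited by 6 arrays.

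The planned limma fit of all genes relative to 1 isoform shared that isoform's error in every row and called 99.6% of genes relative to Pank1, so intervals from each pair's own 4 degrees of freedom were used. The 9 genes, the lists and the alternatives were chosen with earlier results of these data known. The text names the 9 genes, Slc39a13, the 3 nearest genes of each Pank isoform, genes nearest to some other members, and the extreme markers of lists that moved. It also names the called and extreme genes of coenzyme A handling and some, but not all, of those not called. Same-numbered samples were not paired, and limma was the test behind every adjusted p except those given for a plain t-test. The authors' methods combined a t-test with a median-ratio test, and only the t-test was run here.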

Additional observations from a re-analysis of the deposited data

How the results depend on the processing

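The count of 5 higher genes of the 9 was 5 with a plain t-test and 2 after its adjustment, 2 at an adjusted p under 0.01 and 0 with the slide column as a term, and 3 to 5 when 1 array was left out. Of the 16 other genes of coenzyme A handling, of which 8 were higher, the count was 8 with the plain t-test, 5 after adjustment, 3 at an adjusted p under 0.01, 0 with the slide column and 5 to 9 with 1 array left out. Of all 15302 genes tested, 1565 were higher in the main fit, 1541 with the plain t-test, 1003 after its adjustment and 704 at an adjusted p under 0.01. With 1 array left out, 953 to 1658 of all genes were higher. With the slide column, Pank1 minus Pank3 was 1.35 (-0.24 to 2.94) and Pank2 minus Pank3 was -0.72 (-1.91 to 0.48). With 1 array left out, Pank2 minus Pank3 ranged from -0.89 to -0.50 and Pank3 minus Pank4 from 0.57 to 1.07. Pank4 turned to -0.0542 with the slide column, and Vnn1 ranged from -0.39 (without WT replicate 2) to 0.92 (without WT replicate 3). Pank3 was not called without the filter on dim probes (adjusted p = 0.0676) or with the plain t-test after adjustment (0.0960), nor under the latter were Vnn3 (0.0513) or Coasy (0.0694). Pank1 lost its call in 1 of 18 alternatives and Ppcs in 1 of 18, both with the slide column, where a single Zip13-KO array carries the contrast.

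The replicate numbers were not taken to pair the samples. Correlations of same-numbered arrays were -0.0798 to 0.038, which cannot settle pairing with 3 arrays a genotype. With the replicate block, 4 of the 9 genes were higher, against 1271 of all 15302 genes tested. Pank3 no longer passed (adjusted p = 0.0542), and Pank2 minus Pank3 was -0.70 (-1.66 to 0.25). The scaling alternatives moved the median of all genes by less than 0.1 on the log2 scale. An intensity trend with a robust prior was not run for the isoform pairs. Ppcdc was limited by a dim signal, close to the median of all probes though marked well above background on every array.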

Other observations

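The nearest genes in pattern to the members outside the kinase family were named after their values were seen. The 3 nearest to Ppcs were Ndufv2 (distance 0.0792), Ndufa8 (0.0989) and Ndufs8 (0.111), which encode subunits of respiratory complex I and had log2 fold changes of 0.68, 0.71 and 0.74. Ces1d (0.109), 4430402I18Rik (0.145) and Adipor2 (0.146) were nearest to Vnn3, and Tns1 (0.114), Mrpl50 (0.116) and Sod2 (0.126) to Coasy. The gene nearest to Vnn1 was Fabp1, the liver fatty acid binding protein, at a distance of 1.18.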
